A study of Homo sapiens with 12 samples.

Results

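The genes described here are 53 genes of mitosis and of the G2/M transition, the step at which a cell that has copied its DNA enters division. They were chosen by name and not by a cut on any measured value, though earlier results of these data were known. All 53 were found among the 36486 genes that the deposited count table holds once rows with the same symbol are added. They comprise 2 transcription factors, 10 genes of the CDK1, cyclin, CDC25 and mitotic kinase group, 10 kinetochore and chromosomal passenger genes, 8 spindle checkpoint and anaphase genes, 5 spindle microtubule genes, 9 kinesin motors, 6 condensin and topoisomerase genes and 3 cytokinesis genes.

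RNA-seq was analysed in 12 libraries from established human cell lines. TOV-112D, an ovarian carcinoma line with the p53 hotspot mutation R175H, was treated for 3 h with DMSO (the solvent control), UCI-1001 or UCI-1014, with 2 libraries each. All TOV-112D groups thus carry mutant p53. Saos-2, an osteosarcoma line without p53, was sequenced as p53-null cells and as p53-WT cells, with 3 libraries each, and the labels give 16 h of induction for both groups. Per the study's methods the p53-WT cells carry a lentiviral, doxycycline-inducible wild-type p53 and the p53-null cells are the parental line, so the groups also differ by the lentiviral transduction. Whether the p53-null cells received doxycycline is not given in the sources used here, so p53 and doxycycline may not be told apart in this comparison. The labels give no dose for either compound. The study's text states a dose for UCI-1001 in this experiment, but none for UCI-1014. The labels number the replicates without stating that they were separate cultures, so p-values measure the spread between these libraries, which may be technical.

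Entry into mitosis is driven by CDK1 bound to cyclin B, which CDC25 phosphatases switch on. Kinetochores then tie chromosomes to the spindle, the spindle checkpoint holds the cell until all are attached, and the anaphase-promoting complex starts chromosome separation. The mRNAs of these genes are made mostly in G2 and early mitosis under FOXM1 and B-MYB (MYBL2). In cells that arrest, the DREAM complex, in which the MuvB core is joined by RB-related proteins and E2F4, is known to hold many of these genes silent. Wild-type p53 induces CDKN1A (p21), an inhibitor of cyclin-dependent kinases.

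Library totals lay between 17762027 and 24629558 counts. Levels are given as CPM, counts scaled to a common library total after TMM normalisation, and differences as log2 fold changes with their standard error (SE) from edgeR, called at an adjusted p-value under 0.05. Replicate 1 of each Saos-2 group stood apart: the chi-square per degree of freedom of its counts against the other replicates was 23.0 to 24.7 in p53-null and 38.0 to 38.4 in p53-WT cells, but 3.79 and 3.09 between replicates 2 and 3. TOV-112D replicate pairs gave 2.08 to 3.73. CDKN1A rose with p53-WT from 64.7 to 8336 CPM (log2 fold change 7.01 ± 0.19). The osteoblast markers SP7, IBSP and ALPL were at or near 0 TPM (transcript abundance per length, scaled to a common total) in p53-null Saos-2 cells, in which SPP1 had 16.1 TPM. The epithelial keratins KRT8 and KRT18 were high in these cells of an osteosarcoma line, at 179 and 556 TPM. In DMSO-treated TOV-112D cells, a carcinoma line, KRT8 was at 0.305 and KRT18 at 0 TPM, and the epithelial markers EPCAM and CDH1 were at 2.81 and 1.2 TPM. Several markers of each labelled tissue were thus at or near 0.

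The first comparison asked what 16 h of p53-WT did to the mitotic genes. The levels of 51 of the 53 genes were lower in p53-WT than in p53-null cells and none was higher. Each of the 51 fell by more than 1 on the log2 scale, as did 1803 of all 14275 genes tested. In each of the 51 all 3 p53-WT libraries lay below all 3 p53-null libraries. That count was not made over all genes. The median log2 fold change of the 53 genes was -3.23, against -0.01 over all 14275 genes tested. Of all genes tested, 33.0% were called lower and 33.5% higher. The 51 genes were left at 6.81% (TTK) to 28.1% (NCAPD2) of their p53-null level, with a median of 10.6%. Added up, the 53 genes took 9458, 9186 and 8996 CPM in the p53-null libraries and 1595, 1625 and 1546 CPM in the p53-WT libraries. In these bulk libraries fewer dividing cells and less of each mRNA per cell cannot be told apart. Without replicate 1 of both groups the same 51 genes were called lower. For the count of 0 genes called higher, edgeR at an unadjusted p-value under 0.05 and DESeq2 also gave 0, but PTTG1 was called higher with the replicate block (adjusted p = 0.0108), with all 12 libraries in 1 fit (adjusted p = 0.029), without p53-null replicate 1 and without replicate 1 of both groups.

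**Figure D1:**
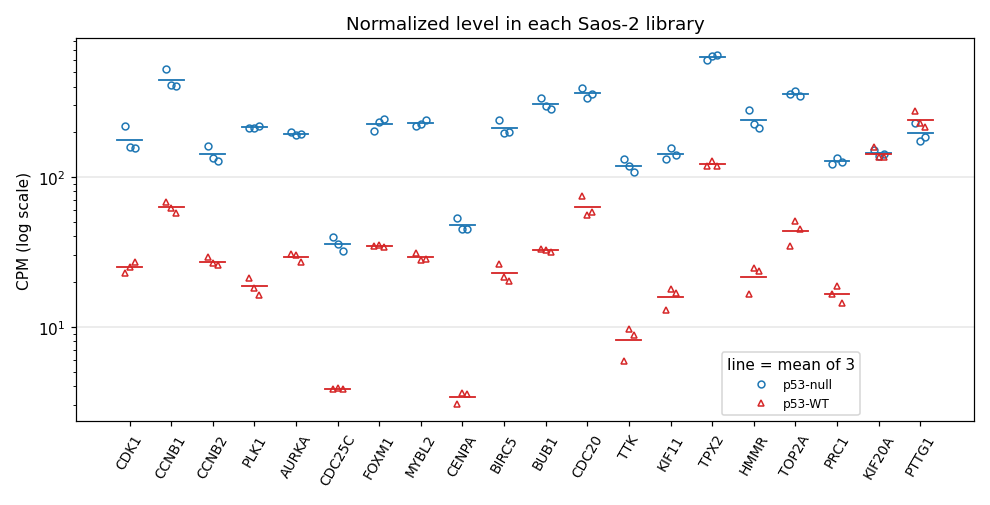
Levels of 20 of the genes in each Saos-2 library, in CPM on a log axis; circles are p53-null and triangles p53-WT libraries, with a line at the mean of 3. The p53-WT libraries lie below the p53-null libraries for every gene shown except KIF20A and PTTG1, where the groups overlap.

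Both transcription factors fell. FOXM1, a forkhead factor that drives G2/M transcription, had 202, 233 and 245 CPM in the p53-null libraries and 34.3, 34.9 and 33.9 CPM in the p53-WT libraries (log2 fold change -2.72 ± 0.11, adjusted p = 5.55e-09). MYBL2, which encodes B-MYB, had 217, 227 and 240.4 CPM against 30.9, 27.7 and 28.5 CPM (-2.97 ± 0.11, adjusted p = 2.51e-09). Their p53-WT libraries lay within a narrow range.

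All 10 genes of the CDK1 and mitotic kinase group fell, with a median of -3.01. CDK1, the kinase that starts mitosis, had 217, 158 and 156 CPM in p53-null and 22.9, 24.9 and 27.1 CPM in p53-WT cells (-2.83 ± 0.15, adjusted p = 3.43e-08). Its partner CCNB1 (cyclin B1) had 522, 408 and 402 CPM against 68.0, 61.9 and 57.6 CPM (-2.83 ± 0.14). In both genes replicate 1 was the highest p53-null library. CCNB2 (cyclin B2) fell less, from 161, 134 and 128 CPM to 29.0, 26.5 and 25.9 CPM (-2.38 ± 0.12). CCNA2 (cyclin A2) fell most in this group, from 186, 164 and 148 CPM to 11.3, 13.1 and 13.5 CPM (-3.71 ± 0.14).

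Among the kinases, PLK1, which acts from mitotic entry to cytokinesis, had 213, 212 and 217 CPM against 21.2, 18.1 and 16.4 CPM (-3.53 ± 0.12, adjusted p = 2.31e-09). AURKA, the spindle pole kinase, went from 198, 189 and 193 CPM to 30.4, 30.1 and 27.1 CPM (-2.73 ± 0.11). AURKB, the kinase of the chromosomal passenger complex, changed by -3.20 and NEK2, a centrosome kinase, by -3.56. The phosphatase genes CDC25C and CDC25B differed in size: CDC25C had 39.5, 35.6 and 31.8 CPM against 3.85, 3.88 and 3.83 CPM (-3.21 ± 0.13), and CDC25B had 92.6, 96.6 and 101.9 CPM against 24.5, 21.2 and 20.7 CPM (-2.13 ± 0.11). CDC25B had the smallest fall of the group.

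The 10 kinetochore and passenger genes all fell, with a median of -3.39 and a range from -3.80 (CENPA) to -2.51 (INCENP). CENPA, the histone H3 variant that marks centromeres, had 53.03, 44.7 and 44.8 CPM in p53-null and 3.06, 3.58 and 3.57 CPM in p53-WT cells (adjusted p = 2.51e-09). CENPF, a large kinetochore protein, had 120.3, 182 and 175.2 CPM against 10.7, 15.4 and 12.9 CPM (-3.61 ± 0.19). BIRC5 (survivin), a passenger subunit, had 240.0, 197 and 200.5 CPM against 26.1, 21.6 and 20.3 CPM (-3.23 ± 0.14). CENPF was lowest in replicate 1 of both groups and BIRC5 highest in replicate 1 of both. The NDC80 complex binds microtubules, and its members NDC80, NUF2, SPC24 and SPC25 changed by -3.26, -3.63, -3.30 and -3.47. CDCA8 (borealin), another passenger subunit, changed by -3.59 and CENPE, a kinetochore motor, by -3.30.

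Of the 8 checkpoint and anaphase genes 7 fell. TTK (MPS1), the kinase at the head of the checkpoint, had the largest fall of all 53 genes, from 132, 117 and 107 CPM to 5.89, 9.66 and 8.77 CPM (-3.88 ± 0.18, adjusted p = 1.21e-08). BUB1, a checkpoint kinase, had 338, 295 and 283 CPM against 33.2, 32.4 and 31.5 CPM (-3.24 ± 0.11). CDC20, the activator of the anaphase-promoting complex, kept more of its mRNA, with 391, 338 and 356 CPM against 74.0, 55.9 and 58.1 CPM (-2.53 ± 0.13). The groups were far apart in each of these genes. ESPL1 (separase, the protease that cuts cohesin) changed by -3.60, MAD2L1 by -3.48, UBE2C (the ubiquitin-conjugating enzyme of the anaphase-promoting complex) by -3.28 and BUB1B by -3.17.

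The 5 spindle microtubule genes fell with a median of -3.47. TPX2, which activates AURKA on the spindle, had the highest CPM of the 53 genes in p53-null cells, with 606, 640 and 647 CPM against 117, 127 and 119 CPM (-2.38 ± 0.10). HMMR, a spindle assembly factor, had 280.2, 224 and 213 CPM against 16.6, 24.6 and 23.5 CPM (-3.47 ± 0.17). The lowest p53-WT library for HMMR was replicate 1, whose p53-null counterpart was the highest. NUSAP1 changed by -3.73, GTSE1 by -3.47 and DLGAP5 by -3.11.

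Of the 9 kinesin motors, 8 fell. KIF11 (Eg5, which pushes spindle poles apart) had 132, 155 and 141 CPM in p53-null and 12.9, 17.9 and 16.7 CPM in p53-WT cells (-3.17 ± 0.14, adjusted p = 1.01e-08). KIF14, a motor of the midbody, had 37.5, 54.7 and 46.4 CPM against 1.91, 4.13 and 3.88 CPM (-3.81 ± 0.24), the widest error among the 53 genes. KIF18A, which dampens chromosome movements at the metaphase plate, had 70.7, 60.4 and 55.5 CPM against 8.11, 13.6 and 11.2 CPM (-2.51 ± 0.18). KIF15, KIFC1, KIF23, KIF2C and KIF4A changed by -3.75, -3.57, -3.47, -3.46 and -3.01. KIF15, KIFC1 and SPC25 each have several rows in the deposited table, between which reads were split, and the sums are given here.

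The condensin and topoisomerase genes, which shape and untangle chromosomes, held the smallest fall. NCAPD2, a condensin I subunit, had 392, 455 and 471 CPM against 126.5, 122 and 122 CPM (-1.83 ± 0.11, adjusted p = 7.91e-08). SMC4, a core subunit of both condensins, had 364.5, 389.6 and 347 CPM against 46.7, 80.4 and 72.7 CPM (-2.46 ± 0.18). TOP2A, the mitotic topoisomerase, had 359, 371 and 348 CPM against 34.3, 50.9 and 44.8 CPM (-3.05 ± 0.15). The condensin I subunits NCAPH and NCAPG changed by -3.57 and -3.55, further than NCAPD2, and SMC2 by -2.42. The difference between subunits was not tested.

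All 3 cytokinesis genes fell. PRC1, which bundles the midzone microtubules, had 122.5, 134 and 125.5 CPM against 16.4, 18.7 and 14.4 CPM (-2.95 ± 0.13). ANLN (anillin, of the cleavage furrow) had 488, 494 and 470.2 CPM against 68.8, 82.5 and 78.2 CPM (-2.66 ± 0.11). ECT2, the exchange factor that activates RhoA, changed by -2.85 ± 0.15.

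KIF20A and PTTG1 were the exceptions. KIF20A (MKLP2), a motor that carries the passenger complex to the midzone, had 150.5, 137.5 and 142 CPM in p53-null and 157, 136 and 135 CPM in p53-WT cells. The groups overlapped, and the log2 fold change was -0.01 (95% interval -0.24 to 0.22, adjusted p = 0.962). On the deposited TPM it was -0.21 with an adjusted p of 0.0354 by limma, which is far from the falls of the other genes. PTTG1 (securin, the inhibitor of separase) had 229, 174 and 184 CPM against 274, 227 and 217 CPM (0.29 ± 0.13, adjusted p = 0.0761), and on the TPM it was at 0.05. Its groups overlapped through replicate 1 of p53-null cells: without that library PTTG1 rose by 0.42 (adjusted p = 0.0185), and without replicate 1 of both groups by 0.32 (adjusted p = 0.000153). Its near-identical copies held few counts, PTTG2 at most 2 in any library and PTTG3P 0. Per transcript length, PTTG1 had the highest level of the 48 genes with complete TPM in both groups, with means of 472 ± 33.3 TPM (SD, n = 3) in p53-null and 488 ± 11.9 TPM in p53-WT cells. KIF20A moved from rank 27 to rank 2 of 48, with 68.6 ± 2.49 and 59.4 ± 2.48 TPM, while the median of the 48 genes was 88.8 TPM in p53-null and 9.27 TPM in p53-WT cells.

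**Figure D2:**
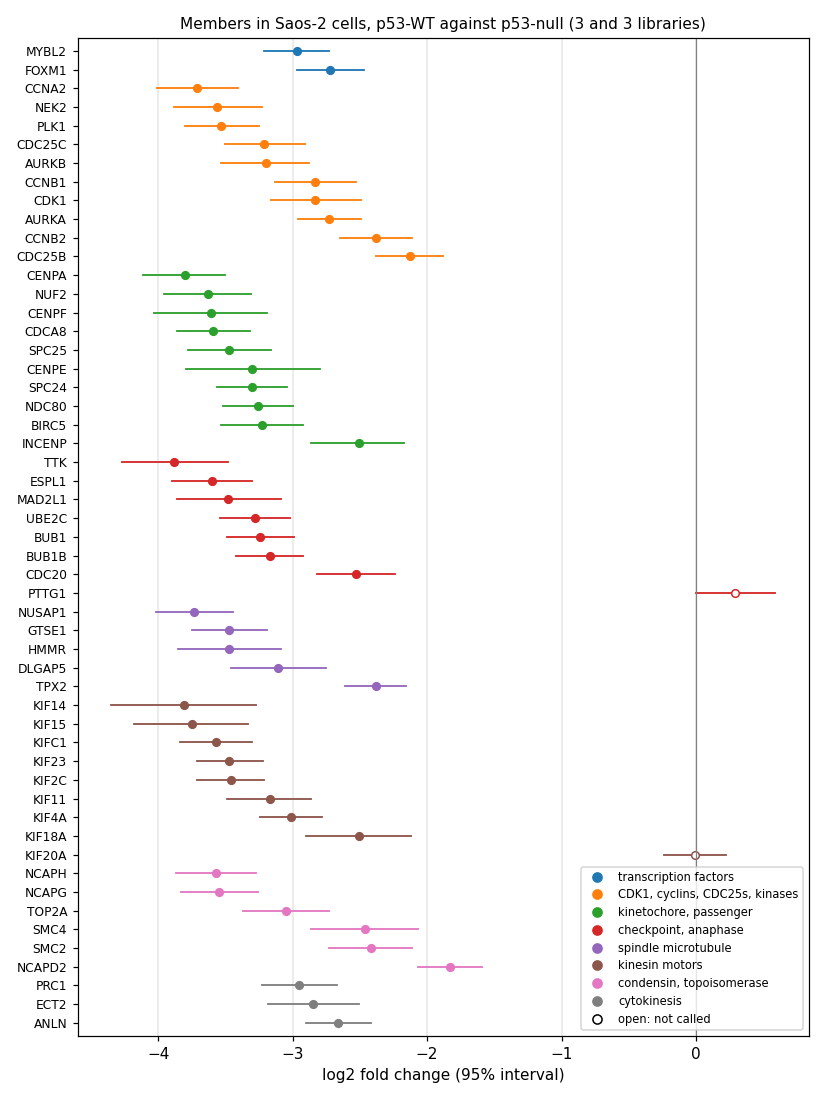
Log2 fold change of each of the 53 genes, p53-WT against p53-null, with its 95% interval, coloured by role; filled points passed an adjusted p-value under 0.05. All filled points lie between -3.88 and -1.83, and the open points are PTTG1 (0.29) and KIF20A (-0.01).

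The promoters of these genes are known for the cell cycle genes homology region (CHR, commonly TTTGAA), which the MuvB core binds, and for CCAAT boxes, which the factor NF-Y binds. The RefSeq promoter table (GRCh38.p14, 250 bases before to 50 after each start) holds 59 windows for 47 of the 53 genes, and none for AURKA, BIRC5, FOXM1, TPX2, TTK and UBE2C. TTTGAA was searched on both strands and lay in 37 of the 59 windows (62.7%), against 15.2% of all 35116 windows. CCAAT, also on both strands, lay in 41 (69.5%) against 34.6%, and TTCGAA, a variant that reads the same on both strands, in 3 (5.08%) against 1.45%. Matches to different motifs can overlap by at most 1 base. By gene, 34 of the 45 matched genes that fell with p53-WT held TTTGAA, against 18.2% of all 27305 genes with windows. The other matched genes that fell held none in these windows, except for the TTCGAA of BUB1 and CDC25B: AURKB, CCNA2, CCNB1, CENPE, KIF2C, MYBL2, NCAPH, NEK2 and SPC24. KIF20A and PTTG1 held CCAAT but neither TTTGAA nor TTCGAA. Other forms of the CHR were not searched. The letters TTTAAA, which differ from TTTGAA at 1 base, stand unmarked in the stretches printed below for KIF20A, PTTG1 and CENPA. A match is a string of letters, not a shown binding site, and its absence says only that these letters are not in the window.

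The stretches of 110 bases before the RefSeq start are printed for 5 genes that fell and hold TTTGAA and for KIF20A and PTTG1, so that they can be set side by side. All 7 genes are on the plus strand, along which the sequences run 5′ to 3′, and capitals mark both motifs, CCAAT and TTTGAA, in either orientation (ATTGG is CCAAT on the opposite strand). They lie at chr15:59105036-59105145 (CCNB2), chr1:43358871-43358980 (CDC20), chr2:26785946-26786055 (CENPA), chr10:92593020-92593129 (KIF11), chrX:70289994-70290103 (KIF4A), chr5:138179002-138179111 (KIF20A) and chr5:160421745-160421854 (PTTG1). None lies in an exon of a GENCODE transcript of the protein-coding type. The GENCODE genes KIF20A, KIF11 and CENPA begin before the RefSeq start (at positions 138178719, 92574105 and 26764289), so their stretches lie within those genes. CCNB2 also begins before its RefSeq start, at position 59105126, so the end of its stretch lies within the gene. The CCNB2 and CENPA stretches share 20 and 29 bases with exons of transcripts of other types. The CCAAT boxes of PTTG1 nearest the start overlap on opposite strands.
CCNB2: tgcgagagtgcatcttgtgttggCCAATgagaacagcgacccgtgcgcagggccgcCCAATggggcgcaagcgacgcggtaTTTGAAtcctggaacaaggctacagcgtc
CDC20: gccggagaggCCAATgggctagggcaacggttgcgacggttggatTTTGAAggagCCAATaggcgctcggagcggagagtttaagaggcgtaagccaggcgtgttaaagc
CENPA: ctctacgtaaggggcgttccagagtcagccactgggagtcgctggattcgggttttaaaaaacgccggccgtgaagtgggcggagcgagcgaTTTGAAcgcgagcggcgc
KIF11: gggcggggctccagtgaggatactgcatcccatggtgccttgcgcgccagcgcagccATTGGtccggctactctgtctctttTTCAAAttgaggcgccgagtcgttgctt
KIF4A: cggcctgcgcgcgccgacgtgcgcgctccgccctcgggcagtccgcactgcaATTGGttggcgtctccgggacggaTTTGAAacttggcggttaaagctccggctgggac
KIF20A: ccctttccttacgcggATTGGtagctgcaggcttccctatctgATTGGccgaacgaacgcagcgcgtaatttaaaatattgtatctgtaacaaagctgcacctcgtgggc
PTTG1: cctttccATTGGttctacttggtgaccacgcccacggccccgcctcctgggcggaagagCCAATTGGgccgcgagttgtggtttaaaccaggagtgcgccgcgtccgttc

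Other genes of cell division were measured from lists of related genes. Of 81 further mitotic genes, 75 were lower with p53-WT, 3 were higher and 3 were not called, with a median of -2.31. The largest falls were those of SKA3 (-4.10), HJURP (-4.07), ASPM (-3.98) and MKI67 (-3.95). The genes called higher were MAD1L1 (0.91), WEE1 (0.55) and BUB3 (0.48), named after their values were seen. Of the 10 DREAM and MuvB genes 7 were lower and 3 higher, where 33.0% of all genes were lower and 33.5% higher, so the share of higher genes was near that of all genes. The p107 gene RBL1 fell by 2.22 and the p130 gene RBL2 rose by 1.06 on the log2 scale, with LIN9 at -0.95 and TFDP1 at -0.94. Of 34 replication licensing and fork genes, 31 were lower and 3 higher, with a median of -2.36, and the largest falls were those of MCM10 (-4.23), CDC6 (-3.77) and CLSPN (-3.72).

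The estimated split of reads between transcripts also differed for some genes. The share of a gene's TPM on transcripts annotated as protein coding had a median of 96.7% over the 53 genes in p53-null and 97.2% in p53-WT cells. For NUSAP1 it was 56.7%, 55.5% and 53.4% in the p53-null libraries and 22.6%, 26.9% and 38.0% in the p53-WT libraries. For BIRC5 it was 87.3%, 92.5% and 89.6% against 59.4%, 72.4% and 64.8%. Of the 48 genes with complete TPM the groups did not overlap in 14: the share was below that of p53-null cells in 7, where NUSAP1 and BIRC5 differed most, and above it in 7, among them INCENP (55.0%, 52.5% and 53.9% against 61.0%, 69.5% and 59.8%). The same count was not made over all genes, so whether 14 of 48 is unusual is not known. The p53-WT shares also rest on fewer reads: NUSAP1 had 193 to 223 counts there, against 2511 to 3112 in p53-null cells. These shares come from kallisto's split of reads between transcripts and were not tested.

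The next comparisons asked whether UCI-1001 or UCI-1014 moved these genes in TOV-112D cells within 3 h. With UCI-1001, 5 of the 53 genes were called, 2 lower and 3 higher, and 48 were not. Of the 14177 genes tested, 6.36% were called lower and 9.39% higher, against 3.77% and 5.66% of the 53 genes. The median of the 53 genes was -0.01, and their summed level was 8173 and 8133 CPM in the DMSO libraries and 8116 and 8134 CPM in the UCI-1001 libraries. ESPL1 fell by 0.30, from 145 and 139 CPM to 117 and 114 CPM (SE 0.04, adjusted p = 0.000287). BUB1B, a checkpoint protein, fell by 0.14, from 125 and 127 CPM to 115 and 115 CPM (adjusted p = 0.0379). The UCI-1001 libraries lay below the DMSO libraries in both genes. With 2 libraries per group this was common, as 18 of the 53 genes lay below DMSO, 20 above and 15 overlapped.

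HMMR had the largest rise with UCI-1001, from 53.1 and 50.6 CPM to 62.2 and 64.4 CPM (0.29 ± 0.06, adjusted p = 0.00366). AURKA rose from 97.6 and 93.1 CPM to 107 and 112 CPM (0.20 ± 0.05, adjusted p = 0.00916), and KIF14 from 91.7 and 87.0 CPM to 101.0 and 101.6 CPM (0.18 ± 0.05, adjusted p = 0.0165). All 5 changes were small beside those in Saos-2 cells. The 95% intervals of the 48 genes that were not called lay between -0.28 (SPC24) and 0.44 (CDC25C). CDK1 had 176.5 and 171 CPM with DMSO and 184 and 184 CPM with UCI-1001 (0.08 ± 0.04, adjusted p = 0.165), PLK1 was at 0.04 ± 0.05 and TOP2A at -0.02 ± 0.03. The 5 calls depended on single libraries. Lower and higher calls numbered 1 and 2 without DMSO replicate 1, 1 and 0 without DMSO replicate 2, 2 and 1 without UCI-1001 replicate 2, and 5 and 4 without either UCI-1014 replicate. None of the 5 was called in every alternative fit, although each kept its direction in all those that measured it (16, or 14 for ESPL1, which was not in the TPM fits).

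With UCI-1014, 18 of the 53 genes were lower, 16 were higher and 19 were not called, and none changed by more than 1 on the log2 scale. Of all genes tested 23.4% were called lower and 23.7% higher, against 34.0% and 30.2% of the 53 genes. The median of the 53 was 0.00 and the changes ran from -0.62 to 0.54. The summed level, 8004 and 8144 CPM, stayed close to that of the DMSO libraries. The counts were 11 lower and 12 higher without DMSO replicate 1. They were 23 lower and 10 higher with upper-quartile scaling, and 8 lower and 1 higher with all 12 libraries in 1 fit. All 34 called genes kept their direction in every alternative fit that measured them, 30 of them in 16 fits; CCNA2, ESPL1, KIF15 and KIFC1 were not in the TPM fits. Called in every fit that measured them were 9: AURKA, which was higher, and BUB1B, CCNA2, ESPL1, FOXM1, GTSE1, KIF4A, MAD2L1 and SPC24, which were lower.

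**Figure D3:**
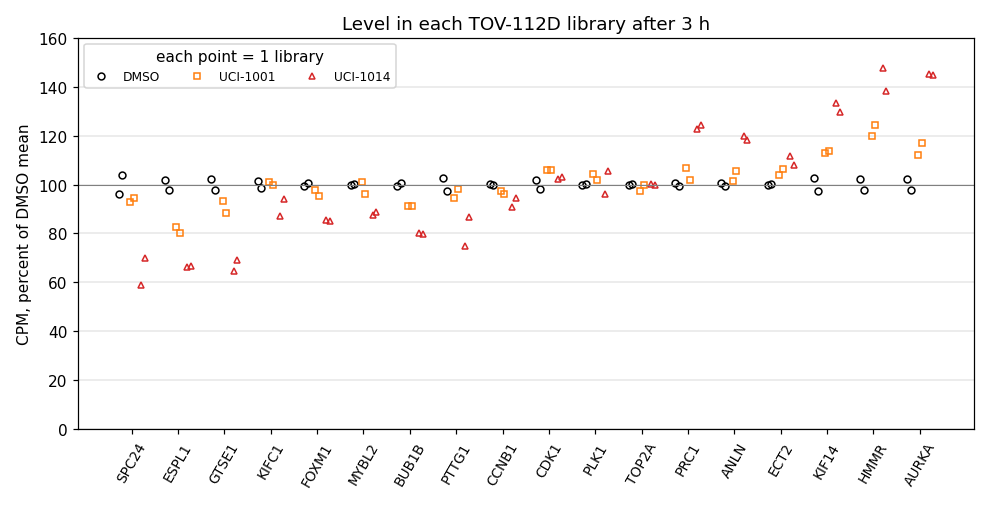
CPM of 18 of the genes in each TOV-112D library as a percentage of the gene's DMSO mean, with the genes called lower with UCI-1014 at the left and those called higher at the right; each point is 1 library. The UCI-1014 libraries reach 59.0% and 70.2% for SPC24 and 145% in both libraries for AURKA, while CDK1, PLK1 and TOP2A stay near 100%.

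Both transcription factors fell slightly with UCI-1014. FOXM1 had 237 and 239 CPM with DMSO and 203 and 203 CPM with UCI-1014 (-0.23 ± 0.04, adjusted p = 0.000145). MYBL2 had 261.5 and 263 CPM against 229.6 and 233 CPM (-0.18 ± 0.04, adjusted p = 0.00128). The groups did not overlap in either gene. With 2 libraries per group this was common, as 22 of the 53 genes lay below DMSO, 21 above and 10 overlapped. That count was not made over all genes.

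In the CDK1 and kinase group 3 genes were lower, 2 higher and 5 not called. AURKA had the largest rise of the 53 genes, from 97.6 and 93.1 CPM to 139 and 138 CPM (0.54 ± 0.05, adjusted p = 2.27e-07). CDC25C, which has few counts here, went from 15.1 and 17.9 CPM to 19.9 and 20.9 CPM (0.31 ± 0.10, adjusted p = 0.0235). CCNA2 fell from 171 and 184 CPM to 147 and 143 CPM (-0.29 ± 0.05, adjusted p = 0.00015). Of the kinases in this group, AURKA was thus called higher and NEK2 lower (-0.23). The cyclin gene CCNB1, at -0.11, was also called lower. CDK1 had 176.5 and 171 CPM against 178 and 179 CPM (0.04, 95% interval -0.04 to 0.12), PLK1 160.3 and 161 CPM against 155 and 169.5 CPM (0.01 ± 0.05), and CCNB2 71.6 and 72.5 CPM against 72.4 and 71.9 CPM (0.00 ± 0.06), and none of them was called.

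At the kinetochore 4 genes were lower and 1 was higher. SPC24, a subunit of the NDC80 complex, had the largest fall of the 53 genes, from 24.5 and 26.5 CPM to 15.1 and 17.9 CPM (-0.62 ± 0.09, adjusted p = 6.47e-05). Its partners in the complex were not called, with NDC80 at 0.09, NUF2 at 0.08 and SPC25 at -0.08. CENPF fell from 350.2 and 329.7 CPM to 252 and 271 CPM (-0.38 ± 0.05, adjusted p = 1.44e-05). The passenger genes INCENP (-0.25) and BIRC5 (-0.18) were lower, while CDCA8 was at 0.01 and AURKB at -0.12, neither called. CENPE was higher by 0.22, and CENPA, at 0.11, was not called.

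The checkpoint and anaphase genes divided into 4 lower, 2 higher and 2 not called. ESPL1 fell from 145 and 139 CPM to 93.9 and 94.6 CPM (-0.59 ± 0.04, adjusted p = 6.55e-08). PTTG1, whose product inhibits the ESPL1 product, also fell, from 46.4 and 44.1 CPM to 34.0 and 39.3 CPM (-0.30 ± 0.07, adjusted p = 0.004). MAD2L1 fell from 126 and 126 CPM to 97.0 and 93.4 CPM (-0.41 ± 0.04, adjusted p = 2.55e-06). The paralogues BUB1 and BUB1B went opposite ways, with BUB1 at 0.13 (adjusted p = 0.0154) and BUB1B at -0.32 (adjusted p = 1.77e-05). TTK rose by 0.31 (adjusted p = 8.54e-05), and CDC20 and UBE2C, at 0.04 and 0.01, were not called.

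Among the spindle and motor genes, HMMR rose from 53.1 and 50.6 CPM to 76.7 and 71.6 CPM (0.51 ± 0.06, adjusted p = 4.49e-06). GTSE1, a microtubule plus-end protein that also binds p53, fell from 115 and 110.2 CPM to 72.7 and 77.8 CPM (-0.58 ± 0.05, adjusted p = 4e-07). TPX2 and DLGAP5 were higher by 0.10 and 0.15, and NUSAP1, at 0.10, was not called. Of the kinesins, KIF14 rose from 91.7 and 87.0 CPM to 119 and 116 CPM (0.40 ± 0.05, adjusted p = 6.43e-06) and KIF18A by 0.32 (adjusted p = 0.00393). KIF4A (-0.25), KIF15 (-0.14) and KIFC1 (-0.14) were lower. KIF20A, KIF11, KIF23 and KIF2C were not called, and KIF20A had 115 and 112 CPM with DMSO and 106 and 107 CPM with UCI-1014 (-0.09 ± 0.04, adjusted p = 0.104).

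All 3 cytokinesis genes were higher with UCI-1014. PRC1 had 127 and 125 CPM against 154 and 156 CPM (0.30 ± 0.04, adjusted p = 3.23e-05), and ANLN 196 and 194 CPM against 234 and 231 CPM (0.25 ± 0.04, adjusted p = 7.43e-05). ECT2 rose by 0.14 (adjusted p = 0.0181). In the condensin group SMC4 rose by 0.30 (adjusted p = 1.4e-05), NCAPG by 0.22 and NCAPD2 by 0.21, NCAPH fell by 0.15, and SMC2 was not called. TOP2A, the gene of the 53 with the highest CPM in these cells, had 949 and 955 CPM with DMSO and 956 and 949 CPM with UCI-1014 (0.00 ± 0.03).

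**Figure D4:**
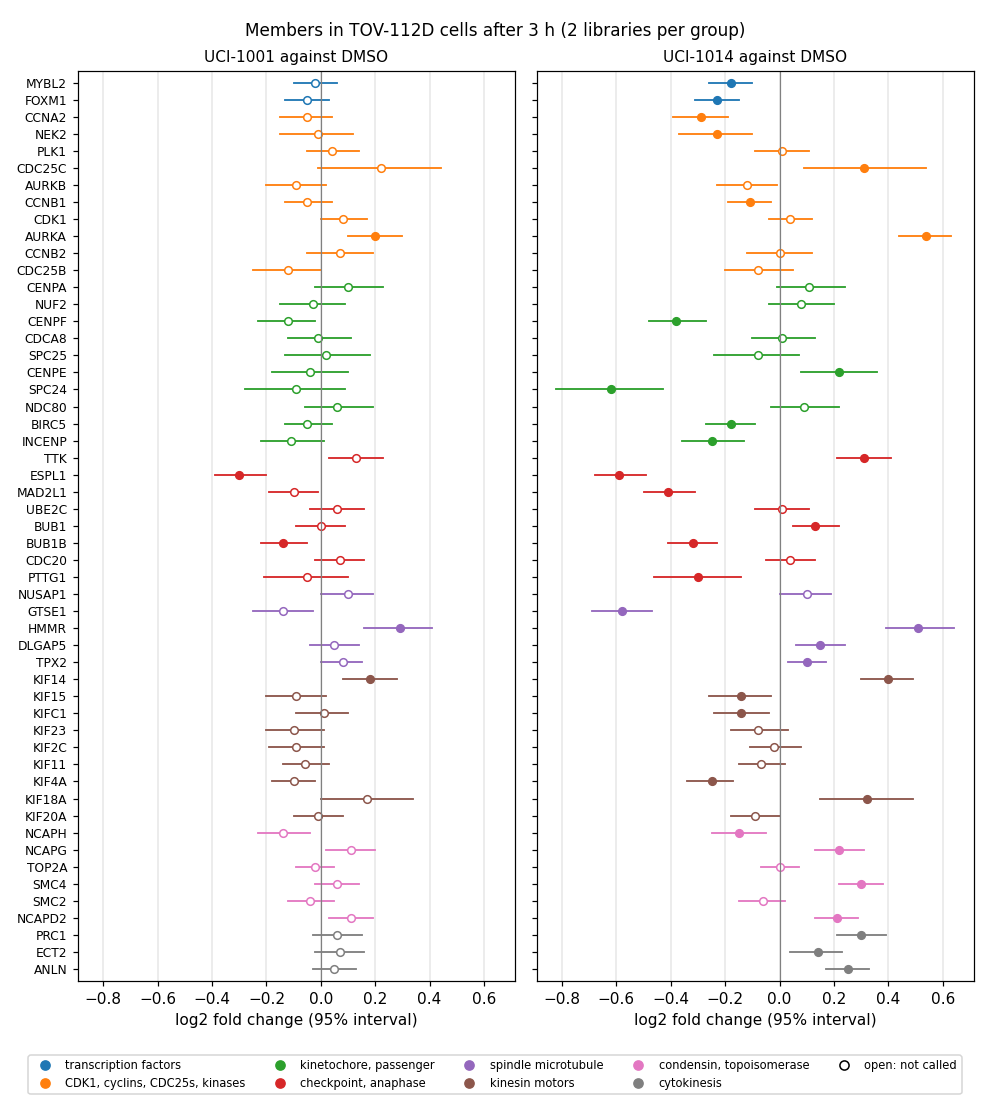
Log2 fold change of each of the 53 genes in TOV-112D cells with its 95% interval, UCI-1001 (left) and UCI-1014 (right) against the same DMSO libraries, coloured by role; filled points passed an adjusted p-value under 0.05. With UCI-1001 5 points are filled, between -0.30 and 0.29, and with UCI-1014 34 points, between -0.62 and 0.54.

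The compounds were also set against each other. Equal doses are not stated in the labels, and the study's text gives no UCI-1014 dose for this experiment. The comparison is thus of these libraries as treated. Between UCI-1014 and UCI-1001, 14 of the 53 genes were lower with UCI-1014, 10 were higher and 29 were not called, that is 26.4% lower and 18.9% higher, against 13.9% and 17.1% of all genes. SPC24 (-0.53 ± 0.09, adjusted p = 0.000582) and GTSE1 (-0.44 ± 0.05, adjusted p = 1.81e-05) were the lowest and were called in all 16 alternative fits. The highest were AURKA (0.34 ± 0.04, adjusted p = 4.82e-05) and CENPE (0.26 ± 0.07, adjusted p = 0.00686). Neither was called in every alternative fit. The 95% intervals of the 29 genes not called lay between -0.26 (INCENP) and 0.32 (CDC25C). Without UCI-1014 replicate 1 the counts were 9 lower and 10 higher, and with upper-quartile scaling 17 lower and 7 higher.

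The DMSO libraries serve as control for either compound, so the 2 sets of changes are not independent and are given side by side only. ESPL1 was at -0.30 with UCI-1001 and -0.59 with UCI-1014, BUB1B at -0.14 and -0.32, AURKA at 0.20 and 0.54, HMMR at 0.29 and 0.51, and KIF14 at 0.18 and 0.40. Some genes showed their change mainly with UCI-1014: SPC24 was at -0.09 and -0.62, GTSE1 at -0.14 and -0.58, and PRC1 at 0.06 and 0.30. In the direct test UCI-1014 was also below UCI-1001 for ESPL1 (-0.29) and BUB1B (-0.19), and above it for HMMR (0.23), KIF14 (0.21) and PRC1 (0.24). Adjusted p-values ran from 0.000181 (ESPL1) to 0.00696 (HMMR) by edgeR. None of these genes kept that call in every alternative fit that measured it, though each kept its direction.

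The genes called higher and lower with UCI-1014 were compared by what the test had not used. The 16 higher genes spanned a median of 42.0 kb in the genome, 17 of the 18 lower genes 25.3 kb and 18 of the 19 others 23.9 kb, the genes with an annotated position. TTTGAA was in the promoter windows of 11 of 13 matched higher genes, 9 of 16 lower genes and 14 of 18 others. Over all 27305 genes with windows the share was 18.2%. Their median log2 fold changes with p53-WT in Saos-2 cells were -3.03, -3.38 and -3.26. These groups were formed from the values, so the figures are a description with no test.

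Other transcripts moved beside these genes. All 13 heat shock chaperone genes listed were higher with either compound, and HSPA1A (HSP70) went from 217 CPM with DMSO to 6796 CPM with UCI-1001 and 24420 CPM with UCI-1014, where it took 2.24% and 2.37% of all counts. The TMM factors were 1.03 and 1.04 for DMSO, 1.02 for UCI-1001, and 0.943 and 0.944 for UCI-1014. CDKN1A was at 8.49, 26.6 and 98.6 CPM with DMSO, UCI-1001 and UCI-1014. The part of these transcripts in the changes of the mitotic genes was not tested. Of the 81 further mitotic genes, 10 were lower and 8 higher with UCI-1001, and 28 lower and 16 higher with UCI-1014. CKS2, a CDK1-binding protein, rose by 0.97 and 2.04, the largest change in that list with either compound, while CCNF was at -0.76 and KIF18B at -0.73 with UCI-1014. Of the 10 DREAM and MuvB genes, 2 were higher and 8 not called with UCI-1001, and 3 were higher (LIN37 at 0.79, LIN54 at 0.76 and LIN52 at 0.74) and 2 lower with UCI-1014. Of the 34 replication genes 5 were lower with UCI-1001, and 8 were lower and 3 higher with UCI-1014, PCNA being the lowest at -0.58. Over all genes 6.36% were lower and 9.39% higher with UCI-1001, and 23.4% and 23.7% with UCI-1014. The share of lower replication genes with UCI-1014, 23.5%, was thus near that of all genes, while that of the further mitotic genes was 34.6%.

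Between the cell lines, levels can be set side by side per transcript length. Over the 48 genes with complete TPM, the median was 73.1 TPM in DMSO-treated TOV-112D cells, 72.3 TPM with UCI-1001 and 74.8 TPM with UCI-1014, and 88.8 TPM in p53-null Saos-2 cells. TOP2A was the highest of the 48 with DMSO (267 ± 6.50 TPM, SD, n = 2), where the libraries of UBE2C (262 ± 5.29 TPM) overlapped with its own and those of CCNB1 (255 ± 7.18 TPM) lay below them. In p53-null cells TOP2A was at 89.8 ± 8.31 TPM, rank 24. CENPE was lowest with DMSO, at 10.5 TPM, and KIF14 in p53-null cells, at 9.30 TPM. The lines differ in origin, p53 status, treatment and time, and no test was made between them.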

How the data were processed

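Total RNA was sequenced from 12 libraries (TOV-112D: DMSO, UCI-1001 and UCI-1014, 2 each; Saos-2: p53-null and p53-WT, 3 each), grouped by their labels. The authors quantified reads against GRCh38 with kallisto 0.48.0 and deposited whole-number gene counts, which are sums of estimated counts over the transcripts of each Ensembl gene, not normalized (40295 rows). The authors also deposited estimated counts and TPM per transcript for each library. The deposited rows were added by symbol (36486 rows). Counts were tested with edgeR 4.0.16 in R 4.3.3 (TMM, filterByExpr, quasi-likelihood test, Benjamini-Hochberg adjustment over all genes tested), with 1 fit per cell line, where each sum of counts ranged from 17762027 to 24629558 and p-values cover the spread between libraries. On simulated data, edgeR recovered most of the largest planted changes. The smallest planted change was 0.5 in log2 size, above most changes called among the 53 genes in TOV-112D cells. Recovery of changes below 0.5 was thus not tried. TPM was added over transcripts matched through GENCODE 44 and used for the 48 genes whose matched transcripts held at least 95% of the deposited counts (not CCNA2, ESPL1, KIF15, KIFC1 and SPC25). Alternatives used DESeq2 1.42.0, limma 3.58.1 on log2(TPM + 0.5) or log2(TPM + 1), other scalings, filters and thresholds, unsummed rows and each library left out. All 53 genes may be named. Values in every library could be given for 24 genes set by name and for the highest and lowest of each role. They are printed only where the text uses them. Of other lists at most 4 called genes with the largest change are named. The genes and lists were chosen with earlier results of these data known. Some measured genes are not reported here.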

Additional observations from a re-analysis of the deposited data

How the results depend on the processing

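All 51 genes called lower with p53-WT kept that call in every alternative fit that measured them, 46 of them in 16 fits. The TPM fits covered 48 genes, without 5 of the 51 (CCNA2, ESPL1, KIF15, KIFC1 and SPC25), and called 47 lower, the other 46 and KIF20A. The count of genes called higher with p53-WT was 0, but 1 (PTTG1) with the replicate block, with all 12 libraries in 1 fit and without both replicate 1 libraries, and 0 to 1 with single libraries left out.

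With UCI-1001 (2 lower, 3 higher) the counts were 1 and 0 at an adjusted p under 0.001, 0 and 0 where the change also had to exceed 1 in log2 size, 7 and 10 at an unadjusted p under 0.05, 1 and 2 with DESeq2, 0 and 0 with limma on log2(TPM + 0.5) or log2(TPM + 1), 0 and 0 with all 12 libraries in 1 fit, and 5 and 4 with only the libraries compared. Leaving out single libraries gave 1 to 5 lower and 0 to 4 higher. With UCI-1014 (18 lower, 16 higher) the counts were 9 and 9 at an adjusted p under 0.001, 0 and 0 beyond 1 in log2 size, 23 and 10 with upper-quartile factors, 10 and 8 in either TPM fit, and 8 and 1 with all 12 libraries. Leaving out single libraries gave 11 to 19 lower and 11 to 16 higher. Between UCI-1014 and UCI-1001 (14 lower, 10 higher) they were 4 and 4 at an adjusted p under 0.001, 0 and 0 beyond 1 in log2 size, 17 and 7 with upper-quartile factors, 3 and 2 in either TPM fit and 2 and 0 with all 12 libraries, and leaving out single libraries gave 9 to 14 lower and 8 to 10 higher. The spread in the fit of all 12 libraries includes that of the Saos-2 cells, and the TPM fits hold fewer genes; the cause of the other shifts was not tested. No called gene reversed its direction in these fits.

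Whether shared replicate numbers mark pairs was not settled. In Saos-2 cells the deviations of same-numbered libraries correlated by 0.06 to 0.17. Those of differently numbered libraries correlated by -0.26 to 0.20, highest for p53-null replicate 2 with p53-WT replicate 3. In TOV-112D cells same-numbered libraries gave -0.15 to 0.04. There the check cannot show pairs, since with 2 libraries per group the deviations mirror each other. With the replicate block the lower and higher counts were 51 and 1 (p53-WT), 1 and 3 (UCI-1001), 16 and 16 (UCI-1014) and 14 and 9 (UCI-1014 against UCI-1001).

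With 2 libraries per group in TOV-112D cells the smallest called change among the 53 genes was 0.10 on the log2 scale, and intervals cover the spread between these libraries. Genes with few counts, such as CDC25C and SPC24, had the widest intervals there. Scaling moved the median of all genes by at most 0.07.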
